A study of Mus musculus with 6 samples.

Results

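The 46 nuclear pore and nuclear transport genes measured here were the genes of the array whose symbol named a numbered nucleoporin (Nup), an importin alpha or beta (Kpna, Kpnb), an exportin (Xpo), an importin (Ipo), a transportin (Tnpo) or a Ran-binding protein (Ranbp), together with Ran, Rangap1 and Rcc1. They stand among 12393 genes in all, and each was read by its brightest probe set over all 6 arrays. Nup205, Nup35 and Nup214, among other genes of this kind, were not analysed here. Pore and transport genes whose array symbols fall outside these names, such as Nupl1 (a synonym of Nup58), Seh1l, Aaas and Cse1l, are not among the 46 and are given near the end. The RNA was that of CD4+YFP+ regulatory T cells (Treg) sorted from C57BL/6 mice of unstated age. Treg cells hold immune responses in check and depend on the transcription factor Foxp3. The 3 USP7-titled arrays come from mice described in the series text as carrying floxed Usp7 with Foxp3cre, whereas their genotype field reads fl-HDAC11/Foxp3cre. The 3 control arrays carry B6_WT titles and the genotype Foxp3cre, so both groups carry the Foxp3cre allele, which limits Cre to cells that express Foxp3. The conflict between titles and genotype field was left as it stands, and groups follow the titles. The sources speak of independent samples without naming animals, and the spread that p-values measure may therefore be technical. Levels are log2 signals per probe set, and a change is the USP7-titled mean minus the control mean on that scale, so a change of 1 is a doubling.

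The nuclear pore is the channel through which proteins and RNA cross the nuclear envelope. Nucleoporins build its rings, anchor it in the membrane and line the channel with phenylalanine-glycine (FG) repeats that soluble carriers can pass. Importins bind cargo in the cytoplasm and release it in the nucleus on meeting the small GTPase Ran in its GTP form, while exportins bind cargo together with RanGTP and release it once GTP is hydrolysed outside. In dividing cells the envelope and its pores are taken apart at mitosis and rebuilt, and Ran, importins and the Y-shaped nucleoporin complex then also act on the spindle and at kinetochores.

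Usp7, a deubiquitinase and the gene named in the titles, was lower in USP7-titled arrays by both of its probe sets, at 49.6% and 50.8% of the control level (higher limma adjusted p = 2.24e-05). Hdac11 was dim and read -0.58 by its brighter probe set (limma adjusted p = 0.0188) and -0.22 by the other (limma adjusted p = 0.355). A two-sided exact permutation test gave 0.1, the smallest p possible with 3 against 3 arrays, for Usp7 by either probe set. The same test gave 0.1 for the brighter Hdac11 probe set, whose groups did not overlap either, and 0.4 for the dimmer one. Other features separated the same groups. Xist averaged 5.30 in USP7-titled and 12.50 in control arrays and the Y-linked Eif2s3y 10.15 and 4.50, and sex therefore cannot be told apart from group, although 0 of the 46 genes lie on X or Y. The mean level of 14 G2/M genes ran from 10.64 to 10.67 in USP7-titled and from 7.50 to 7.64 in control arrays, and 14 of 14 rose, with a median change of 3.08. Of 13 G1/S genes 12 rose, with a median of 1.43. Of 14 myeloid markers 11 rose (mean level 8.02 to 8.29 in USP7-titled arrays and 6.49 to 6.89 in controls). The CD8 T and NK markers Gzma (3.21) and Nkg7 (2.76) rose, while the other 4 of the 6 measured in that list did not pass. The 8 Treg and T cell markers included 0 higher and 6 lower. Foxp3 was 63.1-fold lower in USP7-titled arrays (log2 change -5.98), and Ctla4 (-0.36) and Il2ra (-0.17) were also called lower. Cd4 read 0.01 without passing and alone had a positive change. Over all genes tested 17% rose and 15.9% fell. The difference between 3' and 5' Gapdh control signals, a sign of RNA integrity, ran from 0.907 to 0.986 in USP7-titled and from 0.989 to 1.23 in control arrays, without overlap. The mean hybridization spike signal ran from 12.51 to 12.61 in USP7-titled and from 12.64 to 12.77 in control arrays. The part of these differences in the results below was not tested. In sorted bulk RNA, fewer cells of a type and less RNA per cell cannot be told apart.

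The pore and transport genes that changed were mostly higher in USP7-titled arrays, by less than 2-fold in all but Kpna2 and Nup37. With limma over all genes and Benjamini-Hochberg adjustment at 0.05, 16 of 46 rose (34.8%), against 17% of all genes tested, and 4 of 46 fell (8.70%), against 15.9% of all genes. Together 20 members changed, where 32.9% of all genes did, and the other 26 members did not pass. Background shares of genes in this text are over all genes, dim ones included. Without the dimmest 40% of probe sets 45 members remained, with 16 higher and 5 lower. Of the 7565 genes then tested, 26.5% were higher and 22.9% lower, and the members' median lay 0.21 above theirs. Over all 46 members the median change was 0.20, beside -0.05 for all genes, and 32 of 46 changes were positive. The USP7-titled arrays all lay above the controls in 19 of 46 genes (41.3%, background 20.9%) and all below in 6 (13.0%, background 24.7%). Changes past the threshold and over 1.5-fold were 6 higher (13.0%, background 7.33%) and 0 lower (background 5.67%). Past the threshold and over 2-fold higher were 2 of all 46 members, beside 3.12% of all genes tested. The 6 over 1.5-fold higher were the importin alpha Kpna2 (1.53), the Y complex member Nup37 (1.01), the Ran exchange factor Rcc1 (0.95), the basket protein Nup50 (0.70), the channel protein Nup62 (0.63) and the importin alpha Kpna3 (0.61). The 4 that fell were the basket protein Nup153 (-0.46), the exportin Xpo5 (-0.38), the importin alpha Kpna4 (-0.35) and Ranbp9 (-0.23). With arrays scaled to their hybridization spikes the median of all genes moved by 0.16 to 0.11, 20 members were higher, and among the 4 lower members only Nup153 kept its call (-0.30, limma adjusted p = 0.0203). The share of all calls that were higher was 75.9% with spikes and 51.5% as deposited. Relative to the median of all genes the members' median was 0.25 as deposited. Spike scaling moves every gene on an array by the same amount and so cannot change this difference. Quantile normalization, which can, gave 0.19.

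**Figure D1:**
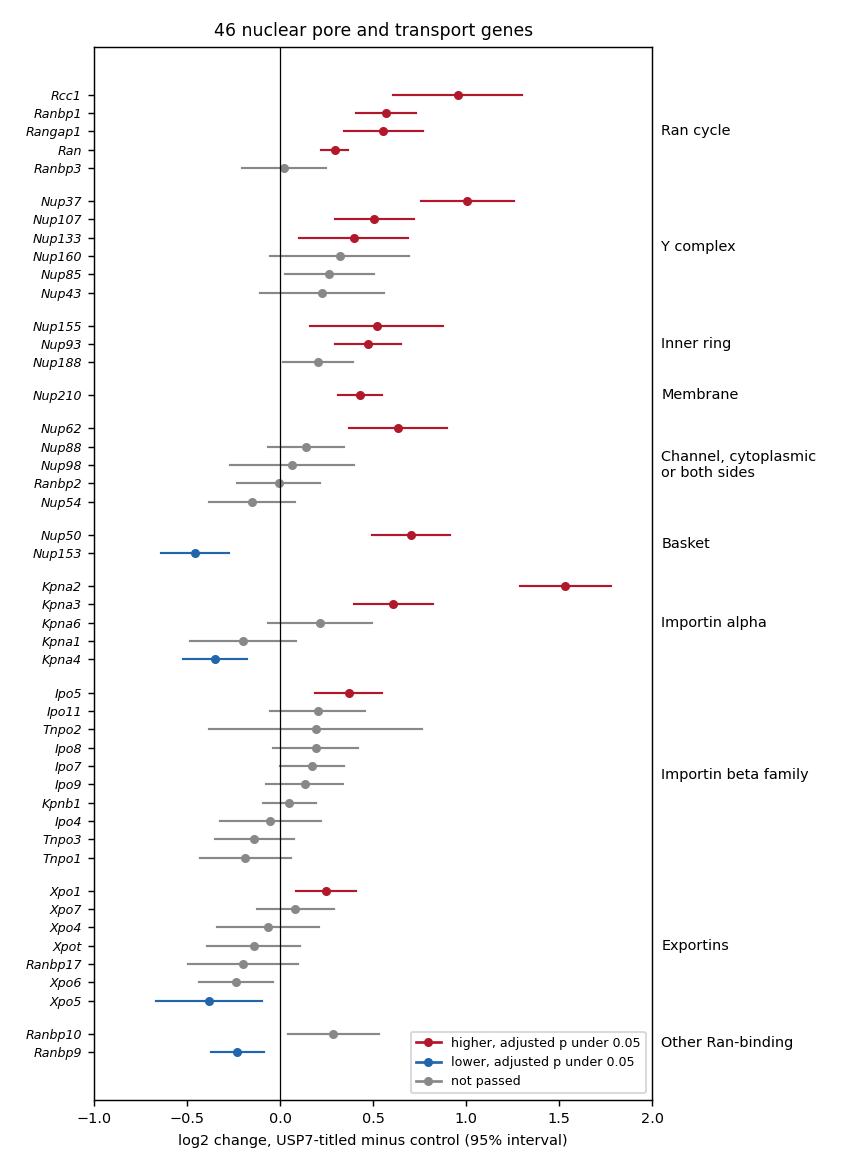
Log2 change (USP7-titled minus control) of each of the 46 genes with its 95% interval from limma, grouped by role. Red marks the 16 genes called higher, blue the 4 called lower and grey the 26 that did not pass. Kpna2 lies farthest right at 1.53 and Nup153 farthest left at -0.46.

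**Figure D2:**
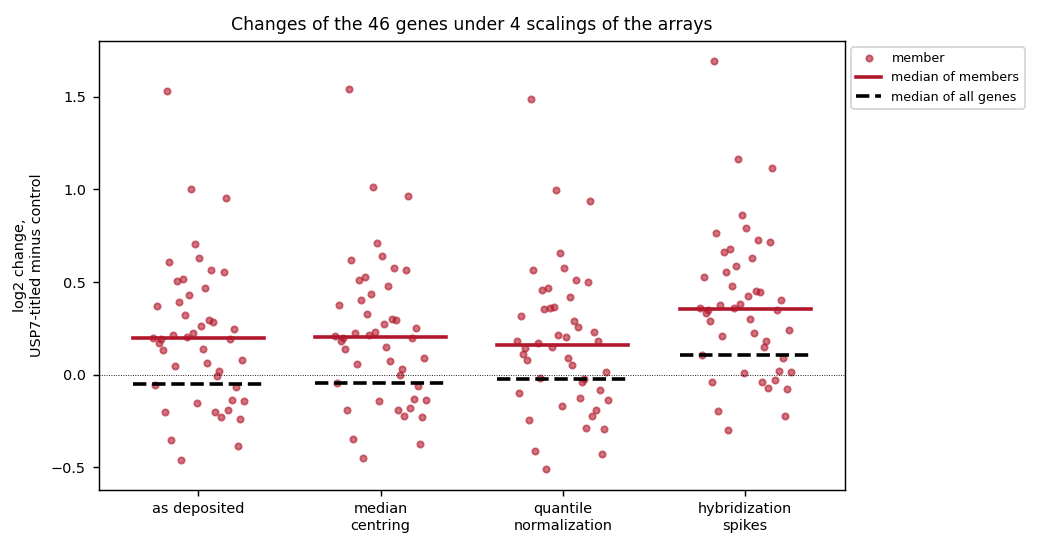
Log2 change of each of the 46 genes (red points, in alphabetical order within each column) under 4 scalings of the arrays, with the median of the 46 genes (red line) and of all genes tested (dashed black line). Both medians move up together when arrays are scaled to the hybridization spikes, to 0.36 for the 46 genes and 0.11 for all genes.

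Promoter windows are shown for the 3 genes with the largest rise, for Ran, on which all these carriers depend, and for Nup153, the gene with the largest fall. The sequences are from RefSeq (assembly GRCm38.p6), run 5′ to 3′ along the gene from 250 bases before its start to 50 after, and carry capitals where a searched motif matched on either strand.
Kpna2, chr11:106999476-106999775, minus strand: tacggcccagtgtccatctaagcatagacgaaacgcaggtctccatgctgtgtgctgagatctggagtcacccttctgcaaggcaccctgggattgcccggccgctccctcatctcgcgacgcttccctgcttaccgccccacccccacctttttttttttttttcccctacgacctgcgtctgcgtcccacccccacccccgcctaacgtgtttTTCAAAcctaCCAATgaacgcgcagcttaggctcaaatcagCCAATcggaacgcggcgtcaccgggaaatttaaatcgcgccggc
Nup37, chr10:88146742-88147041, plus strand: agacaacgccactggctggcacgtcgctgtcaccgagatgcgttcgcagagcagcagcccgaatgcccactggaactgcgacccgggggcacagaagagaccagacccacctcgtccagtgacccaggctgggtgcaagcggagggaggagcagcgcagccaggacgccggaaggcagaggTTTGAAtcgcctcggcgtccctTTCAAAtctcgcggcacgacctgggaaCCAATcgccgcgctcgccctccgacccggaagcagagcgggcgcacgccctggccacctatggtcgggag
Rcc1, chr4:132345701-132346000, minus strand: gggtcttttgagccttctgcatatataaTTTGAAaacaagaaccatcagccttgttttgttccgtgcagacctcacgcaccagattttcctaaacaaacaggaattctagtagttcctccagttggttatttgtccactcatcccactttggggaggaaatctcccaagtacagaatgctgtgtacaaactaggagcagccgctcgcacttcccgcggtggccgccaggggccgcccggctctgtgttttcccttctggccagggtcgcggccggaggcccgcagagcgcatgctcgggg
Ran, chr5:129019906-129020205, plus strand: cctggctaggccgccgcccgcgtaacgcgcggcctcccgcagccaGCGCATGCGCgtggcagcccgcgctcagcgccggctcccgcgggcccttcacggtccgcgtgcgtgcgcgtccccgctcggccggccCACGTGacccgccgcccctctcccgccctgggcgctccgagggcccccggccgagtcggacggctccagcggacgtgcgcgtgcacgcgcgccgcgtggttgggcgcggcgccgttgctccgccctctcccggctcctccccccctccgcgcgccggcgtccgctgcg
Nup153, chr13:46727800-46728099, minus strand: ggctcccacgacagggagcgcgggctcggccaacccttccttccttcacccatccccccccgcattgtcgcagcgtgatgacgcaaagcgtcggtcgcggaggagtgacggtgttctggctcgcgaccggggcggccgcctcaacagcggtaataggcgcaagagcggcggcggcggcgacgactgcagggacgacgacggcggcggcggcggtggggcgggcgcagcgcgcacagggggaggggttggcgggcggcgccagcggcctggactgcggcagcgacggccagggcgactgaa
The 7 motifs searched were TTTGAA, the core of the cell cycle homology element known from G2/M promoters, the E2F-type strings GGCGGGAA, TTTGGCGC and TTTCGCGC, the E-box CACGTG, the box CCAAT bound by NF-Y, and a palindrome of 10 bases bound by NRF1. None of them contains another. In Kpna2 a reversed TTTGAA began 35 bases before the start (position -35) with CCAAT at -25 and again 7 bases into the gene. In Nup37, whose second listed start gives an overlapping window, TTTGAA stood at -69, its reverse at -47 and CCAAT at -20. Rcc1 held TTTGAA at -222, Ran held the NRF1 palindrome at -205 and CACGTG at -118, and the Nup153 window held 0 matches.

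RefSeq windows were found for 37 of the 46 genes, 44 windows in all. They are set beside the 12566 windows of genes on the array and all 32851 windows of the table. TTTGAA was in 22.7% of the members' windows, 12.9% of array gene windows and 17.9% of all windows. CCAAT was in 47.7% of the members' windows, 37.1% of array gene windows and 37.4% of all, and CACGTG in 20.5%, 9.11% and 7.15% of the same sets. The NRF1 palindrome was in 11.4% of the members' windows, 1.60% of array gene windows and 0.971% of all windows, in the 5 genes Ran, Nup62, Nup50, Nup107 and Xpo5. The first 4 of these rose and Xpo5 fell. GGCGGGAA was in 3 windows (6.82%, against 3.29% of array gene windows and 2.19% of all), those of Ranbp1, Nup210 and Nup133, TTTCGCGC in 1 (2.27%, against 0.581% and 0.323%) and TTTGGCGC in 0 (against 0.820% and 0.514%). Counted by gene, 15.4% of array genes with a window held TTTGAA, 42.3% CCAAT and 10.8% CACGTG. Among genes called higher, 5 of 15 with a window held TTTGAA, 9 held CCAAT and 2 held CACGTG. Among the 4 called lower, 0 held TTTGAA, 1 held CCAAT and 0 held CACGTG. Among the 18 that did not pass, 4 held TTTGAA, 8 held CCAAT and 7 held CACGTG. The NRF1 palindrome was in 4 of the 15 called higher, 1 of the 4 called lower and 0 of the 18, beside 1.82% of array genes. GGCGGGAA was in 3, 0 and 0 genes of the same sets, beside 3.97% of array genes. These are matches of letters, with no measure of binding.

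In the Ran cycle 4 of 5 measured members rose (80%, background 17%), and the median change was 0.55. None fell by limma, and the fifth, Ranbp3, did not pass. Ran itself, the GTPase, read 13.16, 13.23 and 13.20 in USP7-titled arrays, against 12.95, 12.88 and 12.87 in controls. The groups did not overlap and were tight, and the change of 0.29 (SE 0.03, 95% interval 0.22 to 0.37), or 1.23-fold, passed the test (limma adjusted p = 5e-05). Of its 6 probe sets 5 rose, by 0.17 to 0.72, and the sixth, which is very dim, read 0.23 without passing.

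Rcc1, the exchange factor that sits on chromatin and loads Ran with GTP, read 9.20, 9.20 and 9.09 in USP7-titled arrays, against 8.13, 8.59 and 7.91 in controls. All USP7-titled arrays were higher, and the spread lay mostly in the controls (SD 0.06 in USP7-titled and 0.35 in control arrays, n = 3 each). The change was 0.95 (SE 0.16), or 1.94-fold (limma adjusted p = 0.000727). Rangap1, which triggers GTP hydrolysis at the cytoplasmic face of the pore, read 10.34, 10.51 and 10.39 in USP7-titled arrays, against 9.97, 9.68 and 9.91 in controls. It rose by 0.55 (SE 0.10, limma adjusted p = 0.00102), and its second probe set rose by 0.60. The genes for the exchange factor and for the GTPase-activating protein, which drive Ran in opposite directions, were both higher.

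Ranbp1, a cytoplasmic cofactor that helps strip RanGTP from carriers, read 12.13, 11.92 and 11.86 in USP7-titled arrays, against 11.49, 11.36 and 11.36 in controls, with no overlap. The change was 0.57 (SE 0.07), or 1.48-fold (limma adjusted p = 0.00013). Ranbp3, a nuclear cofactor of the exportin Xpo1, read 9.59, 9.76 and 9.60 in USP7-titled arrays, against 9.76, 9.66 and 9.48 in controls. Its groups overlapped, and the interval of its change (-0.20 to 0.24) spans 0.

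**Figure D3:**
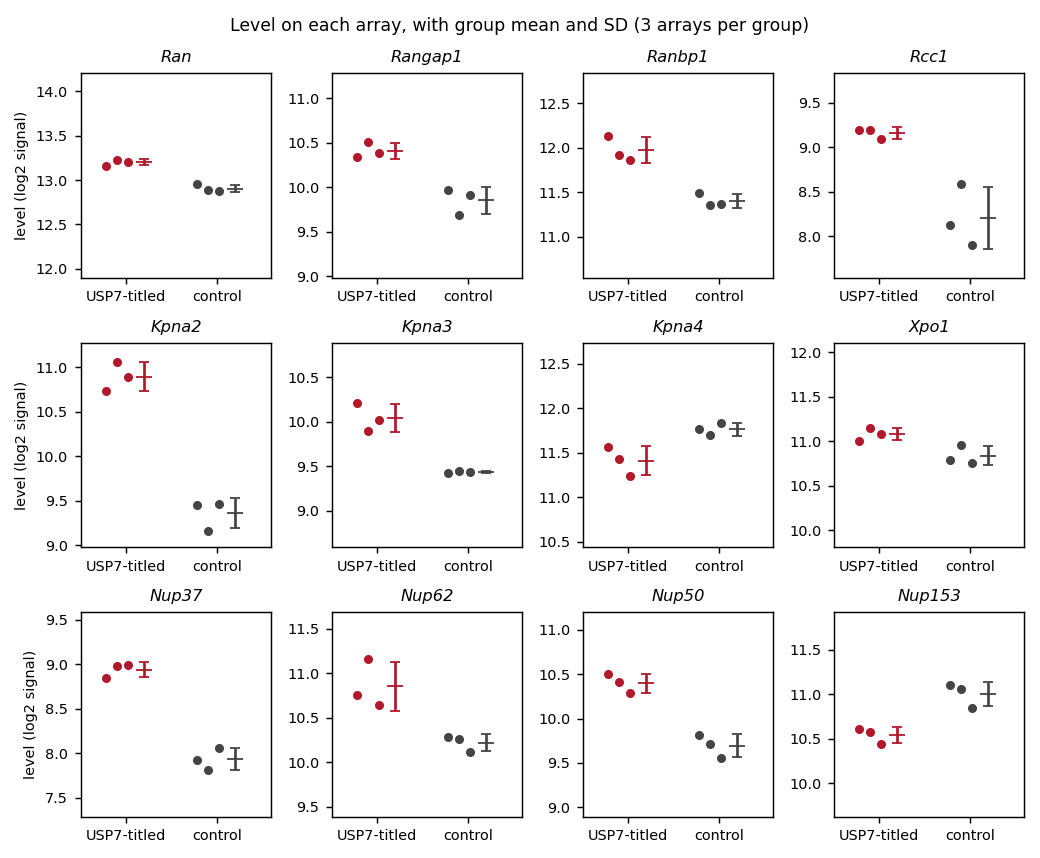
Level (log2 signal) of 12 genes on each array, with USP7-titled arrays in red on the left of each panel and controls in grey on the right. The bar beside each group is its mean and SD (n = 3 each), and every panel spans the same range. The 12 genes were picked among those past the threshold, and their groups do not overlap in any panel. Over all 46 genes the groups overlap in 21, and 45.6% of all genes tested do not overlap. Kpna4 and Nup153 are the panels in which USP7-titled arrays are lower.

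Importin alpha proteins are the adaptors that recognise classical nuclear localization signals and couple them to importin beta. Of 5 measured, 2 rose (40%, background 17%), 1 fell (20%, background 15.9%) and 2 did not pass. Kpna2, known as a gene expressed with the cell cycle, read 10.73, 11.06 and 10.89 in USP7-titled arrays, against 9.45, 9.16 and 9.46 in controls. Every USP7-titled array lay more than 1 unit above every control, and the change of 1.53 (SE 0.11, 95% interval 1.29 to 1.78), or 2.89-fold, was the largest among the 46 genes (limma adjusted p = 1.69e-06). Kpna2 has only 1 probe set.

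Kpna3 and Kpna4, close relatives within the importin alpha family, went in opposite directions. Kpna3 read 10.20, 9.90 and 10.02 in USP7-titled arrays, against 9.42, 9.45 and 9.43 in controls, a rise of 0.61 (SE 0.10, limma adjusted p = 0.000604) that its other probe sets also showed, at 0.64 and 0.78. Kpna4, known as a carrier of NF-kappaB, read 11.57, 11.43 and 11.24 in USP7-titled arrays, against 11.76, 11.70 and 11.84 in controls. It fell by 0.35 on the log2 scale (SE 0.08, limma adjusted p = 0.00482) with no overlap, but its second probe set read -0.05 and did not pass. Scaled to the hybridization spikes Kpna4 read -0.19 and did not pass either (limma adjusted p = 0.129). Kpna1 (-0.20) and Kpna6 (0.21) overlapped between groups, and the 5 probe sets of Kpna1 read from -0.20 to 0.14.

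Of the 10 measured members of the importin beta family, 1 rose (10%, background 17%) and 0 fell (background 15.9%). Ipo5, a carrier of ribosomal proteins and histones, read 10.34, 10.50 and 10.55 in USP7-titled arrays, against 10.06, 10.13 and 10.09 in controls. It rose by 0.37 (SE 0.08, limma adjusted p = 0.00488). A dimmer Ipo5 probe set rose by 0.73, and the dimmest read -0.23 without passing. Kpnb1, importin beta itself, read 11.61, 11.72 and 11.72 in USP7-titled arrays, against 11.77, 11.58 and 11.56 in controls. Its change of 0.05 had a 95% interval of -0.09 to 0.19, so a change of the size seen in Kpna2 lies outside it. The remaining carriers had small positive changes in Ipo11 (0.20), Ipo8 (0.19), Tnpo2 (0.19), Ipo7 (0.17) and Ipo9 (0.13) and small negative ones in Tnpo1 (-0.19), Tnpo3 (-0.14) and Ipo4 (-0.05). Tnpo1 carries hnRNP proteins and Tnpo3 carries SR splicing factors. USP7-titled arrays lay above all controls in Ipo11 and Ipo9, though neither passed, and Tnpo2 was the least precise, with 7.89, 8.36 and 7.06 in USP7-titled arrays, against 7.76, 7.49 and 7.48 in controls.

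The 7 exportins under the naming rule had a median change of -0.14. Of these 1 was higher (14.3%, background 17%) and 1 lower (14.3%, background 15.9%). Outside the naming rule, the exportin Cse1l was higher (0.30, limma adjusted p = 0.0376). Xpo1, known as CRM1, exports proteins with leucine-rich signals. It read 11.01, 11.15 and 11.08 in USP7-titled arrays, against 10.79, 10.96 and 10.75 in controls, a change of 0.25 (SE 0.07, limma adjusted p = 0.024). Another probe set of Xpo1 rose by 0.56 and the dimmest read 0.03. Xpo5, the exporter of microRNA precursors, read 9.40, 9.17 and 9.70 in USP7-titled arrays, against 9.93, 9.77 and 9.72 in controls, where the nearest arrays of the groups almost touch. It fell by 0.38 on the log2 scale (SE 0.13, limma adjusted p = 0.0418). Xpo6, which carries actin with profilin, read -0.24 with no overlap but did not pass (limma adjusted p = 0.0653). The tRNA exporter Xpot (-0.14), Ranbp17 (-0.20), Xpo4 (-0.07) and Xpo7 (0.08) overlapped between groups.

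The calls of Xpo1 and Xpo5 depended on single arrays. Xpo1 did not pass without USP7-titled replicate 2 (0.21) or 3 (0.24), or without control replicate 1 (0.22) or 3 (0.21), with limma adjusted p up to 0.0899, and read 0.18 without passing under quantile normalization. Xpo5 did not pass without USP7-titled replicate 1 (-0.38) or 2 (-0.26), or without control replicate 1 (-0.32), 2 (-0.40) or 3 (-0.43), with limma adjusted p up to 0.154. Scaled to the spikes Xpo5 read -0.23 and did not pass (limma adjusted p = 0.234).

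Nucleoporins under the naming rule, counted as the Nup genes and Ranbp2, included 8 of 17 higher (47.1%, background 17%). In this group 1 was lower (5.88%, background 15.9%), and the median change was 0.32. In the Y complex, the outer scaffold that also sits at kinetochores in mitosis, the 6 measured members with Nup names had positive changes and 3 of them passed (50%, background 17%). Of its members with other names, Sec13 read 0.16, Seh1l -0.09 and Ahctf1 -0.29, the last with all USP7-titled arrays below the controls, and none of these passed by limma. Nup37 read 8.84, 8.98 and 8.99 in USP7-titled arrays, against 7.93, 7.81 and 8.06 in controls. It was higher on every USP7-titled array, by 1.01 (SE 0.11) or 2.01-fold (limma adjusted p = 5.22e-05). Nup107 read 10.10, 10.39 and 10.37 in USP7-titled arrays, against 9.81, 9.80 and 9.74 in controls, a rise of 0.51 (SE 0.10, limma adjusted p = 0.00192). Nup133 read 9.65, 9.98 and 9.43 in USP7-titled arrays, against 9.17, 9.36 and 9.35 in controls. Its change of 0.39 only just passed (limma adjusted p = 0.0418), and its 3 other probe sets read 0.46, which passed, and 0.22 and -0.24, which did not. Nup160 (0.32), Nup85 (0.26) and Nup43 (0.22) overlapped between groups and did not pass.

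The inner ring, which ties the scaffold to the membrane and the channel, had 2 of 3 measured members higher (66.7%, background 17%). Nup93 read 10.10, 10.11 and 10.20 in USP7-titled arrays, against 9.68, 9.67 and 9.64 in controls, a tight separation with a change of 0.47 (SE 0.08, limma adjusted p = 0.00098). Nup155 read 9.74, 10.32 and 10.40 in USP7-titled arrays, against 9.45, 9.62 and 9.83 in controls. Its groups overlapped because USP7-titled replicate 1 lay below control replicate 3, and the change was 0.52 (SE 0.16, limma adjusted p = 0.0292). Its other probe set rose by 0.64. Nup188 read 0.20 with no overlap and did not pass (limma adjusted p = 0.094). Nup210, the membrane glycoprotein of the pore, read 12.28, 12.17 and 12.26 in USP7-titled arrays, against 11.74, 11.78 and 11.90 in controls. It rose by 0.43 (SE 0.05, limma adjusted p = 0.000124).

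Nup133 and Nup155 lost their calls when single arrays were left out. Nup133 did not pass without USP7-titled replicate 1 (0.41) or 2 (0.25), or without control replicate 1 (0.33), 2 (0.43) or 3 (0.42), with limma adjusted p up to 0.154, nor with its probe sets averaged (0.21). Nup155 did not pass without USP7-titled replicate 2 (0.43) or 3 (0.40), or without control replicate 1 (0.43) or 2 (0.51), with limma adjusted p up to 0.114.

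Of 5 measured nucleoporins under the naming rule at the central channel, the cytoplasmic face or both faces, 1 rose (20%, background 17%). Among those with other names Aaas rose (1.19, limma adjusted p = 1.81e-05), and Nupl1 (0.21), Nupl2 (0.27), Rae1 (-0.07) and Gle1 (-0.20) did not pass. Nup62, an FG protein of the channel, read 10.75, 11.16 and 10.64 in USP7-titled arrays, against 10.28, 10.26 and 10.11 in controls. It rose by 0.63 (SE 0.12, limma adjusted p = 0.00188), and 2 further probe sets rose by 0.49 and 0.61, while a dim one read 0.19. Its channel partner Nup54 read -0.15 (95% interval -0.38 to 0.08), with other probe sets at 0.22 and 0.46, none of which passed. On the cytoplasmic side Nup88 read 0.14 and Ranbp2, a filament protein with SUMO ligase activity, -0.01 (95% interval -0.23 to 0.21). Nup98, an FG protein found on both faces, read 0.06.

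The nuclear basket showed opposite changes in its 2 measured members. Nup50, which binds importin alpha and helps release its cargo, read 10.50, 10.41 and 10.29 in USP7-titled arrays, against 9.81, 9.71 and 9.56 in controls. It rose by 0.70 (SE 0.10, limma adjusted p = 0.000193), and its other probe sets rose by 0.44 and 0.49. Nup153, an FG protein that holds the basket to the pore and is known to anchor Nup50, read 10.61, 10.57 and 10.45 in USP7-titled arrays, against 11.11, 11.05 and 10.85 in controls. It fell by 0.46 on the log2 scale (SE 0.08, 95% interval -0.64 to -0.27), to 72.7% of the control level (limma adjusted p = 0.00144). In both genes the groups did not overlap, and a single probe set reports Nup153.

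Ranbp9 and Ranbp10 are scaffold proteins of a ubiquitin ligase complex, named for Ran binding rather than for a place in the transport cycle. Ranbp9 read 10.89, 10.92 and 10.88 in USP7-titled arrays, against 11.12, 11.05 and 11.21 in controls, a fall of 0.23 (log2 change -0.23, SE 0.06, limma adjusted p = 0.0169). It did not pass without USP7-titled replicate 3 (-0.22) or without control replicate 3 (-0.19), with limma adjusted p up to 0.0539, and read -0.07 under spike scaling. Ranbp10 read 0.28 with no overlap and did not pass (limma adjusted p = 0.0732).

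Different probe sets of one gene mostly pointed the same way. Of the 46 genes 20 had only 1 probe set. The called genes among those were Kpna2, Nup37, Rcc1, Ranbp1, Nup107, Nup93, Nup210, Xpo5 and Nup153, so no second probe set can be compared for them. The other 26 genes had more than 1 probe set. In 6 of these another probe set had the opposite sign, namely Ipo5, Ipo8, Kpna1, Nup133, Nup54 and Tnpo1, and in 0 did such a probe set pass the threshold. Of the 91 probe sets 31 were higher and 4 lower, beside 16.3% higher and 16.7% lower (33% in either direction) among all 20380 probe sets with 1 gene symbol. Of 11 genes with several probe sets and a called brightest one, 4 had every other probe set called the same way, namely Kpna3, Nup50, Nup155 and Rangap1.

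Further genes of the same compartments were counted for comparison. Among 13 measured pore and transport genes with other names, 2 rose (15.4%, background 17%) and 1 fell (7.69%, background 15.9%), and the median change was -0.02. Those that rose were Aaas, which encodes the pore protein aladin, and Cse1l, which returns importin alpha to the cytoplasm. The membrane and transport genes Ndc1 (0.24), Pom121 (-0.06) and Phax (-0.02) did not pass. Rangrf, which binds Ran and is known as Mog1, fell by 0.55 on the log2 scale (limma adjusted p = 0.000618). Of 18 mRNA export genes 8 rose (44.4%, background 17%) and 6 fell (33.3%, background 15.9%), with a median of 0.04. Their adaptor Alyref rose by 0.88, the cap-binding protein Ncbp2 by 0.75 and Nxt1 by 0.60, whereas Nxf1, the export receptor that pairs with Nxt1, fell by 0.58 on the log2 scale (highest limma adjusted p of these 4, 0.00293).

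In the nuclear lamina and envelope list, 11 of 16 measured genes rose (68.8%, background 17%) and 1 fell (6.25%, background 15.9%), with a median change of 0.40. Lmnb1, which encodes lamin B1, rose by 1.95, the envelope protein Nrm by 1.26, the lamin gene Lmna by 1.09 and the linker protein Syne2 by 0.95 (highest limma adjusted p of these 4, 0.00383). Sun2 fell by 0.40 on the log2 scale and was named after its value was seen. Of 6 measured SUMO genes 1 rose and 1 fell (16.7% each, near the background). The activating enzyme Sae1 rose by 0.77 and the SUMO protease Senp6 fell by 0.44 on the log2 scale (higher limma adjusted p of the pair, 0.00104).

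**Figure D4:**
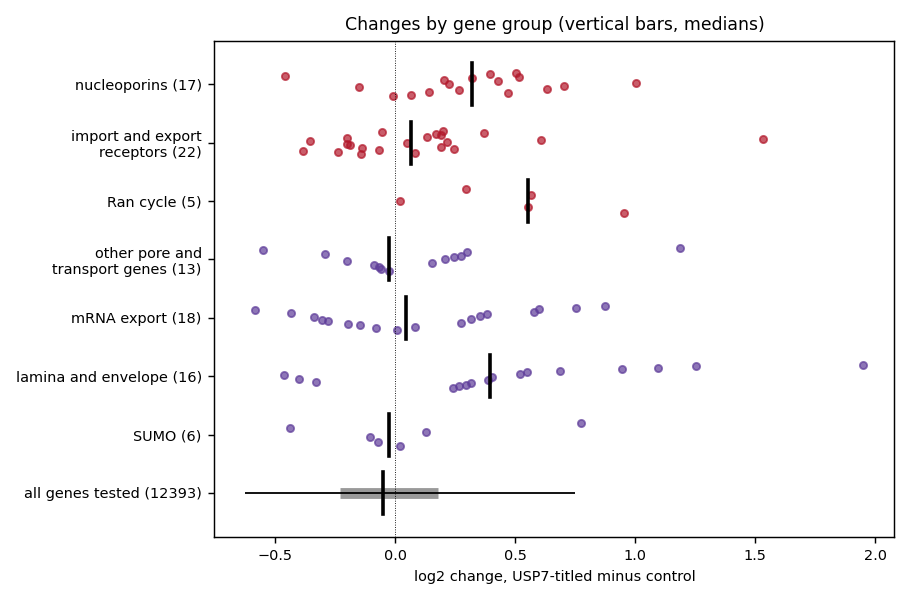
Log2 change (USP7-titled minus control) of each gene in the transport groups (red) and in the other lists (purple), with the number of genes in brackets and medians as vertical bars. For all 12393 genes the thick bar spans the 25th to 75th percentile (-0.23 to 0.18) and the thin line the 5th to 95th (-0.62 to 0.75). These describe single genes and are no yardstick for a list's median. The medians are 0.32 for nucleoporins, 0.06 for import and export receptors, 0.55 for the Ran cycle and 0.40 for the lamina list, beside -0.05 for all genes.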

How the data were processed

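The deposited table gives 6 arrays as log2 signals of probe sets. How it was summarised and normalized is not given in the sources used here, it holds no detection calls, and the log base was read from the values (2.21 to 14.47). Array medians were 7.97 to 8.02 over 20380 probe sets with 1 gene symbol, of 22690 (691 had several symbols, 1555 none, and 64 were array controls). No further normalization was applied, and no gene was left out for low signal. Each gene took its brightest probe set over all arrays. Groups were compared with limma 3.58.1 (R 4.3.3, lmFit and eBayes with trend), a two-sided test. Its p-values were adjusted by Benjamini and Hochberg's method across 12393 genes, with a threshold of 0.05. Targeted genes and probe sets were tested over all probe sets. The number of arrays, 3 per group, limits the precision, and genes had a median residual SD of 0.136. The fit was tested on simulated data. Alternatives were other scalings, filters, probe set rules, variance models, the replicate number as a block and leaving out each array.

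The members, lists and naming rule were chosen with earlier results of these data known. The rule named all 46 genes, gave values by array for the Ran cycle and for called members, and named up to 4 called genes of each further list. The text departs from it for the cell cycle, myeloid, B cell and dendritic lists, which were only counted. Some genes that did not pass, such as Cd4, were named as well. B cell, CD8 T and NK, and dendritic markers were also counted: 1 of 5, 2 of 6 and 1 of 4 rose, and 0, 0 and 1 fell. Of the 4 measured sex-linked genes 3 rose and 1 fell, and of 8 Treg and T cell markers 0 rose and 6 fell. Promoter windows came from RefSeq.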

Additional observations from a re-analysis of the deposited data

How the results depend on the processing

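Of the 20 called members, 14 kept call and direction in all 18 alternatives, and none of the 20 changed sign. The exceptions were Nup133, Nup155, Xpo1, Xpo5, Ranbp9 and Kpna4. Among members that had not passed, 8 passed in at least 1 alternative, most often Xpo6 (lower in 4) and Nup85 (higher in 3). Scaled to hybridization spikes, 1 member was lower and the members' median was 0.36, with 944 genes lower among all (75.9% of all calls higher, against 51.5% as deposited), 5 other pore genes higher, 1 mRNA export gene lower and 2 SUMO genes higher. Without the variance trend, where Nup133, Nup155, Xpo1, Xpo5 and Ranbp9 lost their calls, 2 members were lower and 1 other pore gene higher. At 0.01, 2 members and 1206 of all genes were lower, 1 other pore gene was higher, 5 mRNA export genes were higher and 3 lower, and Hdac11 at -0.58 no longer passed. With probe sets averaged Hdac11 read -0.40 (limma adjusted p = 0.0583), 2 lamina genes were lower and 0 SUMO genes lower by limma. Lamina genes lower were also 2 with quantile normalization and without dim probe sets. Array weights gave a members' median of 0.23. The cause was not tested.

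Leaving out 1 array gave 13 to 15 members higher and 2 to 4 lower, with 2 without control replicate 3. The members' median ran from 0.13 (without USP7-titled replicate 2) to 0.22. Other pore genes were 1 to 2 higher and 1 to 2 lower, mRNA export genes 3 to 5 lower and lamina genes 1 to 3 lower. Hdac11 ran from -0.69 to -0.44, not passing without control replicate 1 or USP7-titled replicate 2.

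Samples with the same replicate number share only a number: their deviations from group means correlated at 0.08, -0.06 and 0.09, and 1 of 3 correlated best with its own number. With the replicate block 17 members were higher and 4 lower, with 2 lamina genes lower. Array signal without detection calls leaves dim genes such as Hdac11 uncertain.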
